A study of Rattus norvegicus with 6 samples.

Results

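The 10 genes examined here belong to a pair of stress responses of the endoplasmic reticulum (ER) and of protein synthesis, and were taken from the count table by symbol, out of 32883 genes in all. The ATF4 arm held 6 genes (Atf4, Ddit3, Trib3, Chac1, Asns and Sesn2) and the ER folding arm held 4 (Xbp1, Sdf2l1, Creld2 and Manf). Each symbol had 1 row, and all 10 passed the filter on low counts that left 14352 genes for testing. The RNA came from the vestibular epithelium of male Long-Evans rats, 3 Control animals on plain water and 3 IDPN-4wk animals whose water held 3,3'-iminodipropionitrile (IDPN) at 20 mM for 4 weeks. IDPN damages hair cells (HCs), the sensory cells of this epithelium. The 2 utricles and 6 cristae of a rat made 1 library, so a library is an animal. The rats were adults per the study's methods, and the sources name no genetic modification in either group.

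In cells under stress, kinases that phosphorylate the translation factor eIF2 lower protein synthesis and let the transcription factor ATF4 be made from an mRNA that is otherwise poorly translated. ATF4 then raises genes for amino acid supply and, under lasting stress, genes of cell death. ATF4 activity is set mostly by translation and is not measured by the Atf4 mRNA. When unfolded proteins accumulate in the ER, the sensors IRE1 and ATF6 raise chaperones and folding enzymes, partly through the spliced form of Xbp1. Counts per gene do not separate spliced from unspliced Xbp1.

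Of the 10 genes, Sdf2l1 alone passed the test with a change of over 1.5 times, and it fell to 41.3% of the Control mean. In the CPM used here, the 4 genes of the ER folding arm were lower in all IDPN-4wk libraries than in any Control library. When counts were set against total counts alone, Sdf2l1 stayed apart, while Xbp1, Creld2 and Manf overlapped between the groups. The ATF4 arm had 0 genes called by edgeR, DESeq2 or limma-voom. Of its 6 genes, 2 had an unadjusted p under 0.05, with Atf4 and Sesn2 higher by less than 1.5 times. Levels are CPM, counts scaled to the TMM-adjusted library size. Log2-Fold changes are IDPN-4wk minus Control, with their standard error (SE), and Padj is the Benjamini-Hochberg adjusted p over all genes tested. A gene was called upregulated or downregulated when its Padj was under 0.05 and its fold change over 1.5. Among all genes tested, 3.09% were called upregulated and 6.62% downregulated (9.71% in either direction), 7.89% were higher and 11.5% lower by Padj alone, and the groups did not overlap for 18.5% of genes on the higher and 19.3% on the lower side. In bulk tissue, fewer cells of a type and less RNA per cell cannot be told apart.

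**Figure D1:**
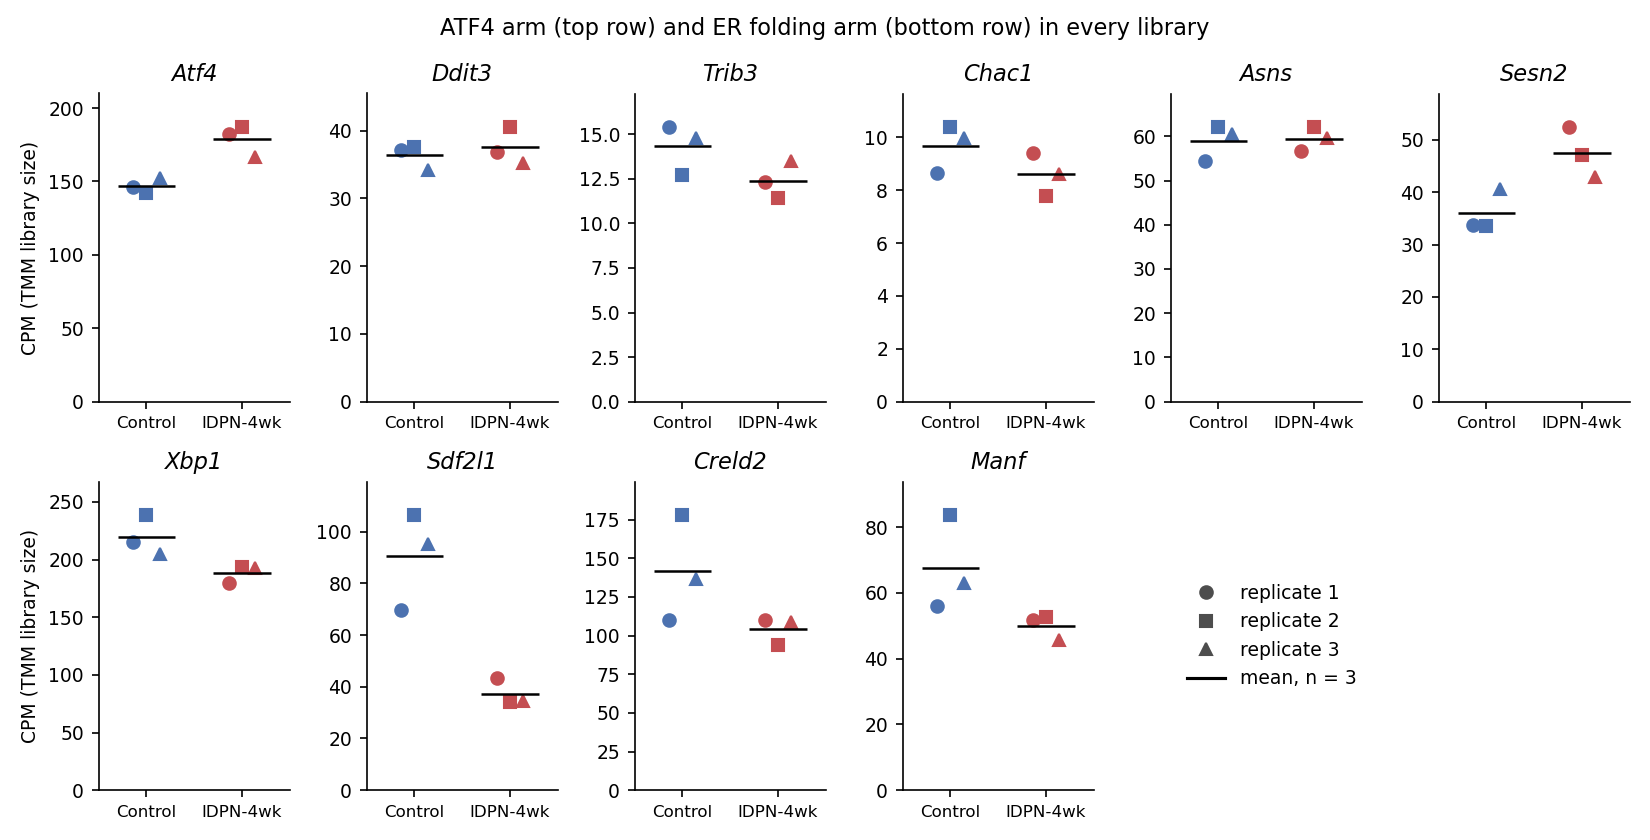
CPM of the 10 genes (vertical axes, from 0) in the 3 Control (blue) and 3 IDPN-4wk (red) libraries, with the mean of each group as a bar and a symbol shape for each replicate number, which pairs nothing. The 4 ER folding genes in the bottom row sit lower in every IDPN-4wk library, Sdf2l1 by the widest margin, while Ddit3, Trib3, Chac1 and Asns in the top row overlap between the groups.

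Libraries held from 13358678 to 18561991 counts. Counts of mitochondrially encoded genes made up from 2.73% to 3.35% of a library. Of the 15 HC markers, 8 were downregulated and their summed level was 61.0% of Control, and of the 12 supporting cell markers 4 were downregulated with a sum of 59.6% and a median log2-Fold change of -0.33, and 2 were above 0. HC marker sums ranged from 3013 to 3263 CPM in Control and from 1699 to 2218 CPM in IDPN-4wk libraries, so the labelled tissue was recognised in all 6.

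Atf4 encodes the transcription factor for which the first arm is named. It measured 146, 142 and 152 CPM in the Control and 182, 187 and 167 CPM in the IDPN-4wk libraries. Every IDPN-4wk library was thus above every Control library. The log2-Fold change was 0.28 (SE 0.07, Padj = 0.0206), a level 122% of Control and under the fold threshold. Padj was under 0.05 in 2 of the 6 fits that left out a single library.

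Ddit3 encodes CHOP, a transcription factor of lasting ER stress that can promote cell death. Its levels were 37.2, 37.6 and 34.2 CPM in Control and 36.8, 40.6 and 35.2 CPM in IDPN-4wk rats. The groups overlapped, with the IDPN-4wk values spread across and just above the Control range. The log2-Fold change was 0.048 (Padj = 0.766), and its 95% interval ran from -0.16 to 0.26.

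Trib3 encodes a pseudokinase that is induced with CHOP and acts back on ATF4. It was found at 15.4, 12.7 and 14.8 CPM in Control and 12.3, 11.4 and 13.5 CPM in IDPN-4wk libraries. The lowest 2 of the 6 libraries were IDPN-4wk, but the third of that group lay inside the Control range. Its log2-Fold change was -0.21 (SE 0.14, Padj = 0.344).

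Chac1 encodes an enzyme that breaks down glutathione. It was the gene of the 10 with the fewest counts, from 131 to 151 per library, and measured 8.65, 10.4 and 9.98 CPM in Control against 9.42, 7.79 and 8.63 CPM in IDPN-4wk rats. The groups overlapped and the difference was within their spread (log2-Fold change -0.17, 95% interval -0.54 to 0.20, Padj = 0.519).

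Asns encodes asparagine synthetase, the enzyme by which ATF4 activity supplies asparagine. The Control values were 54.3, 62.1 and 60.5 CPM and the IDPN-4wk values 56.6, 62.2 and 59.5 CPM. The groups covered nearly the same range. The log2-Fold change was 0.013 (Padj = 0.934), and the 95% interval from -0.17 to 0.20 stayed inside the fold threshold on both sides.

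Sesn2 encodes sestrin 2, a leucine sensor that restrains the growth kinase mTORC1 and is also induced by oxidative stress and p53. It measured 33.8, 33.5 and 40.6 CPM in Control and 52.6, 47.2 and 42.9 CPM in IDPN-4wk libraries. All IDPN-4wk values were above the Control values, with the highest Control and the lowest IDPN-4wk library close together. The log2-Fold change was 0.40 (SE 0.11, Padj = 0.0274), or 132% of Control, again under the fold threshold, and Padj was under 0.05 in 2 of the 6 fits without a single library.

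Counts of a target per count of Atf4 do not depend on how libraries are scaled. This ratio was 0.254, 0.265 and 0.224 for Ddit3 in Control and 0.202, 0.217 and 0.211 in IDPN-4wk libraries. The groups did not overlap for Ddit3, Trib3, Chac1 and Asns, whose mean ratios were 84.7%, 71.7%, 73.2% and 82.9% of Control. For Sesn2 the ratio was 109% of Control and the groups overlapped. Since Atf4 itself was higher, a lower ratio without overlap was common, and 45.4% of the other genes tested had one.

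**Figure D2:**
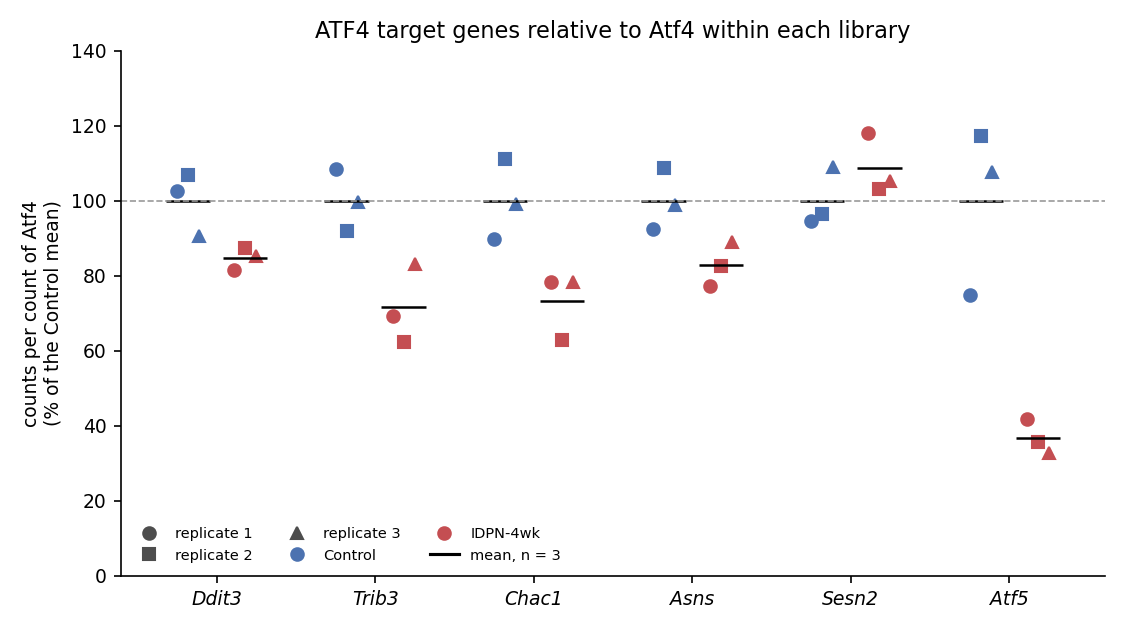
Counts of ATF4 target genes and of the related factor Atf5 per count of Atf4 in each library, as a percentage of the Control mean (vertical axis), with group means (n = 3) as bars. Ddit3, Trib3, Chac1, Asns and Atf5 lie lower in all 3 IDPN-4wk libraries, and Sesn2 overlaps between the groups.

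In the second arm, Xbp1 encodes the transcription factor that IRE1 activates by splicing. It measured 215, 239 and 205 CPM in Control and 179, 194 and 193 CPM in IDPN-4wk rats. The Control libraries were all higher than the IDPN-4wk libraries. The log2-Fold change of -0.22 (SE 0.08) missed the threshold (Padj = 0.0738), at 85.9% of Control.

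Sdf2l1 encodes an ER protein that works with the chaperone BiP and its cochaperone DNAJB11. It measured 69.8, 106 and 95.2 CPM in Control and 43.4, 34.3 and 34.6 CPM in IDPN-4wk libraries. The lowest Control library was well above the highest IDPN-4wk library. Sdf2l1 fell by 1.28 on the log2 scale (SE 0.15, Padj = 2.56e-04, or 0.00521 when a fold change over 1.5 was itself tested with glmTreat of edgeR). It was called in every fit without a single library, with values from -1.43 to -1.14, and 2.64% of all genes tested had a lower log2-Fold change.

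Creld2 encodes an ER protein that takes part in disulphide formation. Its levels were 110.16, 178 and 137 CPM in Control and 109.996, 93.7 and 109 CPM in IDPN-4wk libraries. The groups did not overlap, but Control replicate 1 and IDPN-4wk replicate 1 were practically equal. The log2-Fold change of -0.44 (SE 0.15) missed the threshold (Padj = 0.0547). It was -0.25 without Control replicate 2, the highest library, and -0.60 and called (Padj = 0.00818) without Control replicate 1.

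Manf encodes a secreted and ER-resident neurotrophic factor that binds BiP. It measured 56.1, 83.7 and 63.0 CPM in Control and 51.7, 52.6 and 45.7 CPM in IDPN-4wk rats. All IDPN-4wk values were lower, and Control replicate 2 stood above the other Control libraries. The log2-Fold change was -0.43 (SE 0.13, Padj = 0.0446), at 73.9% of Control and within the fold threshold. It was -0.25 (Padj = 0.139) without Control replicate 2. Padj was under 0.05 in 1 of the 6 fits without a single library, and was 0.0553 by limma-voom.

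Control replicate 2 was the highest Control library for 4 of the 4 ER folding genes and for 26 of the 31 genes in the wider list of ER chaperones below, against 35.8% of all genes tested. The summed level of the 4 genes was 451, 607 and 500 CPM in Control and 384, 374 and 381 CPM in IDPN-4wk libraries. Control libraries thus spread more than IDPN-4wk libraries, with a median coefficient of variation of 21.0% against 8.06% over the 4 genes (9.66% and 10.5% over all genes tested). Hair cell and supporting cell markers also had this library as the highest Control for 11 of 15 and 8 of 12 genes. Their part in the ER folding values was not tested.

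**Figure D3:**
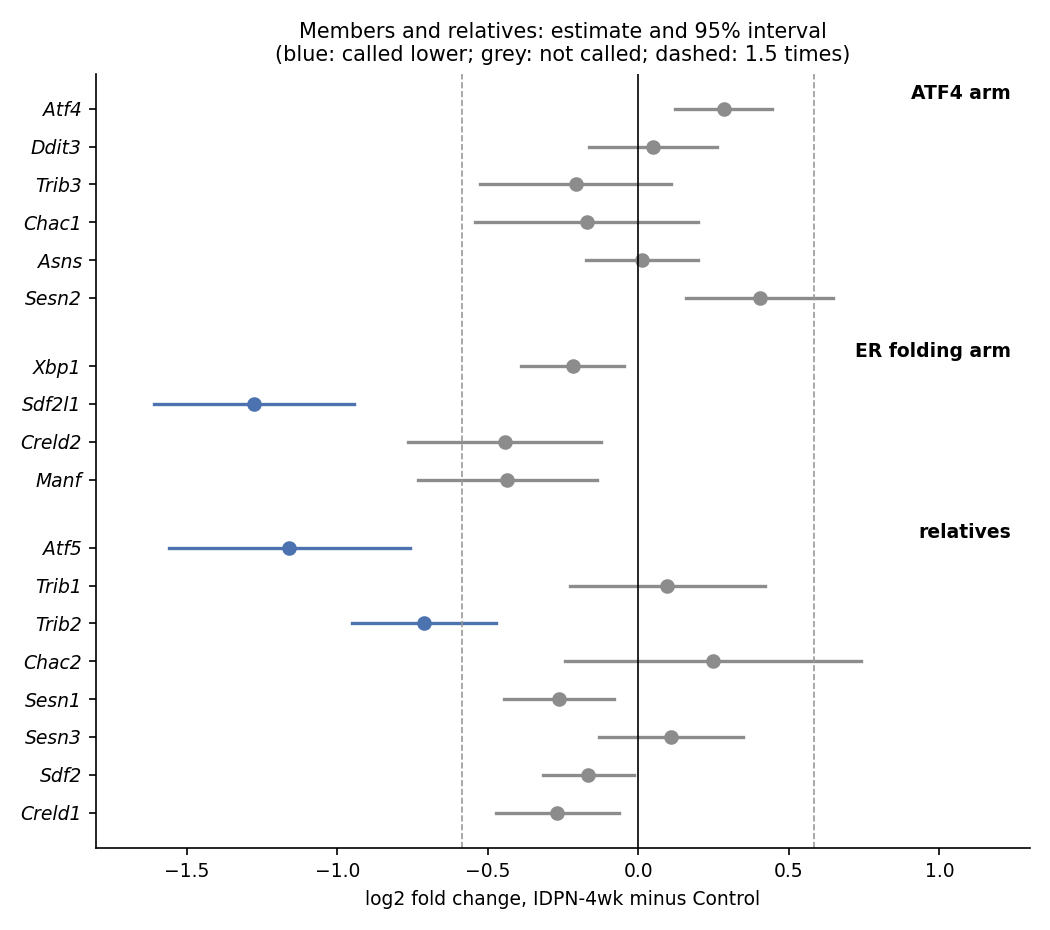
Log2-Fold change of the 10 genes and of 8 relatives, with 95% intervals from the edgeR fit (n = 3 per group), dashed lines at a fold change of 1.5. Sdf2l1, Atf5 and Trib2 (blue) were downregulated, and the intervals of Ddit3, Trib3, Chac1 and Asns span 0.

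Relatives of the 10 genes did not follow them one for one. Atf5, a factor close to Atf4 and also under eIF2 control, measured 21.2, 32.2 and 31.7 CPM in Control and 14.7, 12.9 and 10.6 CPM in IDPN-4wk libraries. The groups were well apart, and Atf5 fell by 1.16 on the log2 scale (SE 0.18, Padj = 0.00147), while its count per count of Atf4 was 36.7% of Control. Trib2, a pseudokinase of the Trib3 family, measured 42.3, 47.8 and 43.0 CPM in Control and 29.0, 23.8 and 28.5 CPM in IDPN-4wk rats. It was lower in every IDPN-4wk library and fell by 0.71 (SE 0.11, Padj = 0.00122). Atf5 and Trib2 were called in 6 of the 6 fits without a single library, but by glmTreat Atf5 had a Padj of 0.0357 and Trib2 one of 0.582.

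The other relatives were not called. Sesn1, a sestrin driven by p53, had a log2-Fold change of -0.26 (Padj = 0.0461), and counts of Sesn2 per count of Sesn1 were 159% of Control without overlap, as a higher ratio to Sesn1 was for 41.6% of the other genes tested. Sdf2, the paralog of Sdf2l1 that is not known for induction by ER stress, had a log2-Fold change of -0.17 (Padj = 0.118). Counts of Sdf2l1 per count of Sdf2 were 0.638, 0.917 and 0.860 in Control and 0.446, 0.346 and 0.334 in IDPN-4wk libraries. The ratio was lower in every IDPN-4wk library, at 46.6% of Control, and a lower ratio to Sdf2 without overlap was found for 10.8% of the other genes tested. Creld1 had a value of -0.27 (Padj = 0.0648), and the ratio of Creld2 to Creld1 overlapped between the groups. Trib1 (0.10), Chac2 (0.25) and Sesn3 (0.11) overlapped too, and Cdnf, the paralog of Manf, had under 1 CPM in every library and was not tested.

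Of the kinases that start the integrated stress response by phosphorylating eIF2, Eif2ak2 alone was called. Eif2ak2 encodes PKR, the kinase that responds to double-stranded RNA and is itself induced by interferon. It measured 46.5, 47.9 and 47.8 CPM in Control and 90.5, 82.3 and 67.2 CPM in IDPN-4wk libraries. Every IDPN-4wk library was above the narrow Control range, and the gene rose by 0.75 on the log2 scale (SE 0.11, Padj = 7.69e-04, or 0.341 by glmTreat). Eif2ak3, which encodes the ER stress kinase PERK, had a value of -0.23 (Padj = 0.0914). Eif2ak1, the haem-regulated kinase (0.046), and Eif2ak4, the amino acid sensor GCN2 (-0.062), overlapped between the groups.

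The ER sensors were not called. Atf6 measured 77.0, 74.6 and 75.3 CPM in Control and 51.3, 57.8 and 64.4 CPM in IDPN-4wk rats. All IDPN-4wk libraries were lower, with a log2-Fold change of -0.39 (Padj = 0.0140) inside the fold threshold. Ern1, which encodes IRE1, had a value of -0.11 (Padj = 0.428). Ppp1r15a, the stress-induced subunit that returns eIF2 to its active state, had a value of 0.14 (Padj = 0.203), and its constitutive counterpart Ppp1r15b one of 0.29 (Padj = 0.0159). In the list of 20 tested sensors and eIF2 regulators, 1 was upregulated and 0 downregulated. By Padj alone 5 were higher and 1 lower, and the median log2-Fold change was 0.15 against 0.019 over all genes.

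Further target genes of ATF4, 30 of them tested, were mixed, with 3 upregulated and 2 downregulated. Upregulated were Cebpb (1.28), Atf3 (1.18) and Ddit4 (0.61), the first pair being transcription factors of the immediate stress response and the last an inhibitor of mTORC1. Downregulated were Slc7a11 (-0.79), the cystine transporter, and Vldlr (-0.67), a lipoprotein receptor. Cebpb measured 4.71, 4.89 and 3.68 CPM in Control and 10.5, 13.5 and 8.30 CPM in IDPN-4wk libraries, without overlap. Slc7a11 measured 49.5, 57.8 and 44.7 CPM in Control and 28.5, 27.9 and 31.8 CPM in IDPN-4wk rats, also without overlap. By glmTreat, Cebpb had a Padj of 0.0450, Atf3 of 0.153 and Slc7a11 of 0.260, and Vldlr and Ddit4 did not pass. Atf3 had a Padj of 0.0509 without IDPN-4wk replicate 1, and Vldlr (-0.50) was under the fold threshold without IDPN-4wk replicate 2. Ddit4 was under it without IDPN-4wk replicate 2 (0.53) and without Control replicate 3 (0.47).

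The median of the 30 targets was 0.12. Immediate early genes respond to tissue handling as well as to stress. Of the 11 tested, 10 had a log2-Fold change over 0 and 3 were upregulated (27.3% against 3.09% of all genes). Their median was 0.24 and the highest value 2.72, and the summed level of that list was 111% of Control. The part of tissue handling in the Cebpb and Atf3 values was not tested. Cytosolic tRNA synthetases, a group that ATF4 raises together with Asns, had 0 of 20 genes called. By Padj alone 2 were higher and 1 lower, 5 had an unadjusted p under 0.05, DESeq2 and limma-voom called 0, and the median was 0.047.

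ER chaperones and folding enzymes were lower as a group, in the direction of Sdf2l1. Of 31 tested, 30 had a log2-Fold change under 0, 7 were downregulated (22.6% of the list against 6.62% of all genes) and 0 upregulated. The median was -0.30 against 0.019 over all genes, 14 were lower by Padj alone, and in 19 of the 31 the groups did not overlap on the lower side. Without Control replicate 2 the list had 4 called genes, a median of -0.21 and 28 of 31 genes under 0.

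Hspa5 encodes BiP, the main Hsp70 chaperone of the ER. It measured 1739, 2922 and 2250 CPM in Control and 1376, 1246 and 1310 CPM in IDPN-4wk libraries. The IDPN-4wk libraries were all lower and lay close together, and Hspa5 fell by 0.81 (SE 0.15, Padj = 0.00365, or 0.368 by glmTreat). Hsp90b1, the ER form of Hsp90, measured 1557, 2163 and 1963 CPM in Control and 1284, 957 and 1034 CPM in IDPN-4wk rats. The groups did not overlap, and Hsp90b1 fell by 0.80 (SE 0.13, Padj = 0.00216, or 0.341 by glmTreat).

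Fkbp2, an ER prolyl isomerase, had the lowest value of the list, just below that of Hspa5. Without Control replicate 1, Hspa5 was lower (-0.98) than Fkbp2 (-0.88). Fkbp2 measured 78.5, 93.9 and 88.2 CPM in Control and 51.5, 52.1 and 44.5 CPM in IDPN-4wk libraries. The groups were well apart, and Fkbp2 fell by 0.82 (SE 0.10, Padj = 2.52e-04, or 0.103 by glmTreat). The other called genes, named after their values were seen, were the disulphide isomerases Pdia4 (-0.73) and Pdia6 (-0.65), the oxidase Ero1b (-0.64) and the lectin chaperone Calr (-0.59).

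Neighbouring steps of the secretory pathway were not called. ER associated degradation, which returns misfolded proteins to the cytosol, had 0 of 23 genes called and a median of -0.028, with 2 lower and 1 higher by Padj alone. The translocon and signal peptidase, which bring new proteins into the ER and trim them, had 0 of 21 called and a median of -0.093, with 3 lower and 1 higher by Padj alone. DESeq2 and limma-voom also called 0 in both lists, and an unadjusted p under 0.05 was found for 4 and 8 genes. Of the translocon genes 14 of 21 were under 0, the groups did not overlap on the lower side for 6, and the summed level was 88.2% of Control.

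**Figure D4:**
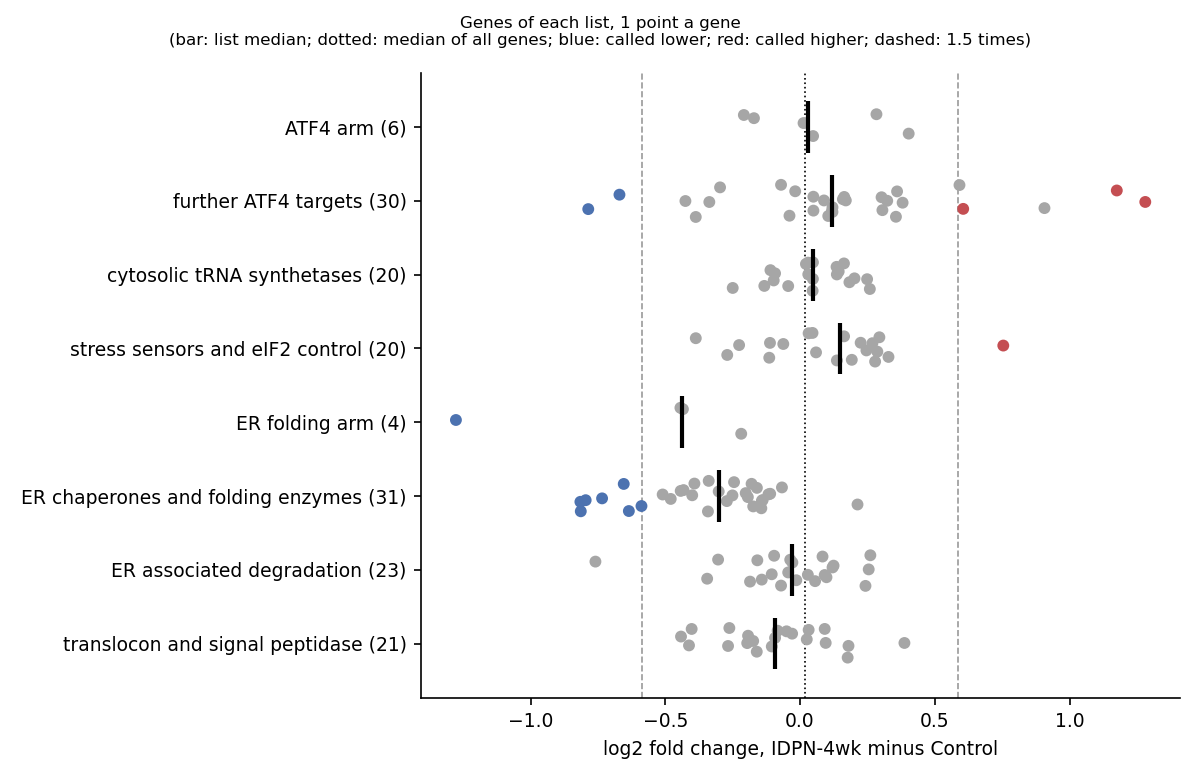
Log2-Fold change (horizontal axis) of each tested gene in the 2 arms and in 6 wider lists, with the number tested in parentheses, the list median as a bar and the median of all genes as a dotted line. ER chaperones sit left of 0 in 30 of 31 genes, whereas the tRNA synthetases, ER associated degradation and translocon genes lie on both sides with none called.

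Marker lists of other cells were read beside these values. Among supporting cell markers, Otog (-0.97) and Tectb (-0.88), which encode secreted matrix proteins and were chosen after their values were seen, were downregulated. Plasma cells are rich in ER chaperones. Of the B and plasma cell list, the B cell factor Pax5 was at 0 counts in all 6 libraries, and Jchain, the joining chain of secreted antibodies, had counts in 1 of them. None of the 4 tested genes of that list were called, and its sum, mostly Fkbp11 of the chaperone list, ranged from 153 to 168 CPM in Control and from 124 to 156 CPM in IDPN-4wk libraries. The red blood cell list had 2 of 4 genes upregulated and a sum from 212 to 252 CPM in Control and from 247 to 495 CPM in IDPN-4wk libraries. The Schwann cell list had 1 of 8 downregulated and a sum of 77.6% of Control. The dark cell and melanocyte list had 3 of 9 downregulated and a sum from 1971 to 2540 CPM in Control and from 1416 to 1583 CPM in IDPN-4wk libraries, 65.7% of Control. The neuron list had 2 of 6 downregulated, 1 upregulated and a sum of 64.3%. The endothelium list had 1 of 5 downregulated and a sum of 85.8%, the stroma list 1 of 8 down and 1 up with 93.8%, and the macrophage list 1 of 10 up with 98.1%. Control replicate 2 was also the highest Control library for 6 of the 9 dark cell and melanocyte and 4 of the 5 endothelium genes. Their part in the ER chaperone values was not tested.

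Promoter sequence was compared across the members, since the ER folding genes were all lower and the ATF4 arm was mixed. RefSeq promoters of the build GRCr8, from 250 bases before to 50 bases after the gene start, were matched by symbol for 9 of the 10 genes. Manf had no entry. The letters searched on both strands were TGATGNAA, the C/EBP-ATF response element bound by ATF4, and TGACGTG, an unfolded protein response element. The ER stress response element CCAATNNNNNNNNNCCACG and its second form ATTGGNCCACG, both bound by ATF6 with partners, were searched as well. No match overlapped a match of another element in the genes described here. They were found, in the order given, in 3.98%, 1.81%, 0.0657% and 0.0508% of 33469 promoters.

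In the ATF4 arm, TGATGNAA was found in Trib3, from 21 to 14 bases before the start, and in Chac1, from 167 to 160 bases before it, both on the opposite strand. Atf4, Ddit3, Asns and Sesn2 held none of the 4 sequences in this window. The same element was in 7 of the 17 tRNA synthetase promoters and 8 of the 27 promoters of further ATF4 targets. The stretch of 170 bases before the start is shown for the pair with a match, with the matched letters in capitals.
Trib3, chr3:161275534-161275703, minus strand: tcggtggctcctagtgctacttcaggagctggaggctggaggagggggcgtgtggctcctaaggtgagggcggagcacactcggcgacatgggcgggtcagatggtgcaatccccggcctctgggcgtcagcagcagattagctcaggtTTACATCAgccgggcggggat
Chac1, chr3:126795961-126796130, plus strand: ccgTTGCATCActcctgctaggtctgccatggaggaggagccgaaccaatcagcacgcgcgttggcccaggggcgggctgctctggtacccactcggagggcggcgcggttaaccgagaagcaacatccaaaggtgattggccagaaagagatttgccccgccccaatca

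In the ER folding arm, the ER stress response element was found in Xbp1, from 65 to 47 bases before the start, and in Creld2, from 145 to 127 bases before it on the opposite strand. Sdf2l1, the 1 gene of the 10 that was called, held none of the 4 sequences in this window. Hspa5 held the ER stress response element from 43 to 25 and TGACGTG from 135 to 129 bases before the start. Sdf2l1 is shown beside these 3 so that a gene that fell without a match can be compared with those that hold one, with matched letters in capitals.
Xbp1, chr14:84604453-84604622, plus strand: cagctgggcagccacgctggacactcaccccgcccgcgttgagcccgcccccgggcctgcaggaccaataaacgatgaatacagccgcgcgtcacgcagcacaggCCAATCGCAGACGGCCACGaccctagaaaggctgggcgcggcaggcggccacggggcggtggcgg
Creld2, chr7:121789214-121789383, plus strand: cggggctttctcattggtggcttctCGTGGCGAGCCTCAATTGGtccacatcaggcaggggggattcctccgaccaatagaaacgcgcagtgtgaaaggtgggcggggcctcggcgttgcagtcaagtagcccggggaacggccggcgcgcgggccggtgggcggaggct
Sdf2l1, chr11:97376708-97376877, plus strand: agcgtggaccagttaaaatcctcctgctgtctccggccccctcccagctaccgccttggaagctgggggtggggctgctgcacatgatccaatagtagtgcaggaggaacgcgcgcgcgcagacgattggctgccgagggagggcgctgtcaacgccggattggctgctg
Hspa5, chr3:38452846-38453015, plus strand: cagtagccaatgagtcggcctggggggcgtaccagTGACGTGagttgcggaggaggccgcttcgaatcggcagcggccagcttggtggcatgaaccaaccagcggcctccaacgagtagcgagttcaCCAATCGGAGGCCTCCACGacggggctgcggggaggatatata

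The ER stress response element is rare, with 22 promoters in the whole table, of which 6 belonged to the chaperone list (28 promoters) and 2 to the ER folding arm. The 6 chaperones that hold it (Hspa5, Hsp90b1, Ero1b, Calr, Dnajc3 and Canx) had a median log2-Fold change of -0.61, with 4 downregulated. The 21 tested chaperones with a promoter but without the element had a median of -0.25, with 2 downregulated, and 21 of the 21 were under 0. Counting either form of the element, 8 chaperones held one and had a median of -0.53 with 4 downregulated, and the 19 with neither had a median of -0.25 with 2 downregulated. The first form was also in 7 tested genes outside all the lists, which had a median of 0.051, 3 under 0 and 0 called. With either form, 14 tested genes outside the lists had a median of -0.0034, 7 under 0 and 1 called, upwards. Derl3, of the list of ER associated degradation, held the first form and had a log2-Fold change of -0.76 (Padj = 0.289). Without Control replicate 2, Hspa5 and Hsp90b1, which hold the first form, were at -0.61 and -0.69. Fkbp2, without it, was at -0.76 there. The split of the chaperones by element was not repeated without that library. A match describes the letters only and does not show that a factor binds to them.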

How the data were processed

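Poly(A)-primed SMART-seq2 libraries were made by the authors from the total RNA of 1 rat each, with 8 cycles of cDNA amplification and 12 of library amplification. Per the labels, the submitters' processing notes name STAR 2.5.3a and RSEM 1.3.0, and the study's methods name the genome Rnor6.0. The deposited values are expected counts per gene, whole numbers as deposited, so rounding changed 0 of them. Reads had no strand or molecular identifiers, so overlapping genes were not separated.

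The 6 libraries were grouped by the treatment label. The title codes of the IDPN-4wk rats share a prefix that no Control has, and what it marks is not given, so it cannot be told apart from treatment. Genes were filtered with filterByExpr of edgeR 4.0.16 (minimum count 10, total 15), scaled with TMM and tested with glmQLFit and glmQLFTest over all 14352 genes in R 4.3.3, after a run on simulated data. SEs were taken from the quasi F statistic. A count of 0 allows up to 3 counts, from 0.155 to 0.216 CPM by library, for counting error only.

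The genes, lists and motifs were chosen with earlier results of these data known. Named were all 10 members, their relatives, the eIF2 kinases and phosphatase subunits, Ern1, Atf6, Hspa5, Hsp90b1, and up to 3 called genes at each end of every wider list. Other genes were named after their values were seen. Of the listed genes, 20 of 22 sensors, 30 of 35 ATF4 targets, 31 of 32 chaperones and 21 of 23 translocon genes were tested. The others were removed by the filter or had no row under the symbols searched. Alternatives used DESeq2 1.42.0, limma 3.58.1, other scalings, filters and thresholds, and each library left out.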

Additional observations from a re-analysis of the deposited data

How the results depend on the processing

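Sdf2l1 was called in all fits run, and the 4 ER folding genes had log2-Fold changes under 0 in each of them. With the adjusted p alone as the threshold, the ATF4 arm had 2 genes past it, the ER folding arm 2, sensors 6, further ATF4 targets 8, tRNA synthetases 3, ER chaperones 14, ER associated degradation 3 and the translocon 4. When a fold change over 1.5 was itself tested (glmTreat), sensors had 0, further ATF4 targets 1 and ER chaperones 0, while over all genes that test called 99 higher and 354 lower in place of 444 and 950. Scaling by library size alone moved the median of all genes from 0.019 to 0.13 and gave 4 called chaperones. Sdf2l1 was at -1.17, Xbp1 at -0.11 (Padj = 0.313), Atf4 at 0.39 and Sesn2 at 0.51 there, and Eif2ak4 turned to 0.047. Creld2 and Manf had a Padj of 0.101 and 0.0934 there, and of 0.0105 and 0.0126 with the Wald test of DESeq2. Over the fits that left out 1 library, the ER folding arm had 1 to 2 genes called, further ATF4 targets 3 to 5, and ER chaperones 4 to 7. The sign of genes near 0 turned among these fits, with Ddit3 from -0.015 to 0.080, Asns from -0.044 to 0.051, Eif2ak1 from -0.0028 to 0.072 and Eif2ak4 from -0.12 to 0.0057. The causes were not tested.

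No paired analysis was possible because the labels give no replicate numbers, and those used here follow accession order and only name a library. All 6 libraries share 1 batch label. With 3 rats a group, an exact permutation test of a single value cannot go below 0.10. Depth limited Cdnf and other genes under the filter. Counts of Chac1 were low, and its interval is wide.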
